A study of Mus musculus with 6 samples.

Results

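The genes described here are 9 that mark the neuron-like cells of the adrenal medulla by their cytoskeleton or their surface: the cytoskeletal and axonal genes Stmn2, Uchl1, Gap43, Nefl, Nefm and Prph, and the surface genes Dlk1, Ncam1 and Ret. Members were taken by symbol, as all probe sets that the array's platform annotation assigns to one of these names, bright or dim. All 9 genes were on the array, with 14 probe sets of 12422. The series measured adrenal RNA of male mice aged 12 weeks on Affymetrix arrays, 1 sample to an array, labelled with biotin. The chromogranin A (Chga) knockout had 3 arrays, and wild type also had 3. The whole gland was used, cortex and medulla together, and the labels describe the allele and the controls only by the study that made the mice. The labels give 3 mice per genotype, so each array was read as 1 animal, and p-values measure the spread between these arrays.

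Chromaffin cells of the medulla arise from the neural crest, as sympathetic neurons do, and share many neuronal transcripts with them, although they normally form no axon. Neurofilament subunits and peripherin are intermediate filament proteins that polymerise along axons. Stathmin 2 and GAP-43 belong to growing nerve endings, and UCHL1 is a deubiquitinating enzyme abundant in neuroendocrine cells. NCAM1 and DLK1 are membrane proteins of chromaffin cells, and RET is a receptor for the GDNF family of neurotrophic factors. The gland also holds nerve fibres and some ganglion neurons. In RNA of a whole gland, fewer cells of a type and less RNA per cell cannot be told apart.

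Signals are linear array intensities, scaled by the authors to a common level, with median signals between 954 and 1093 on the 6 arrays. A probe set is called dim below a signal of about 582, the level that kept 60% of probe sets for testing. Of the member probe sets, 5 of 14 passed that level, for Stmn2, Uchl1, Dlk1 and Ncam1, while all probe sets of Gap43, Nefl, Nefm, Prph and Ret were dim. No detection calls were used, so whether a dim probe set stood above background was not settled. Chga checked the labels: its brighter probe set gave 1188, 858 and 951 on the 3 knockout arrays, against 46719, 30213 and 35306 on the 3 wild-type arrays (a log2 change of -5.19 ± 0.20, limma adjusted p = 5.29e-06). Knockout array 1 stood apart from the other arrays in the members, and knockout arrays 2 and 3 stood apart in skeletal muscle transcripts. Member values are therefore also given without knockout array 1. Those values rest on knockout arrays 2 and 3 alone, whose Gapdh control ratios, given below, were also the highest. They are not a corrected estimate.

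No member passed the test between genotypes. Of the 5 member probe sets tested, 0 passed an adjusted p of 0.05 in limma, against 0.443% of all 7453 probe sets tested. At an unadjusted p under 0.05 there were 3, for Stmn2, Dlk1 and Ncam1, all with higher knockout values, against 5.06% of all tested probe sets. The median log2 change was 0.38 over the 5 member probe sets and -0.01 over all tested probe sets. The members fell into 3 patterns: Dlk1 and the main Ncam1 probe set lay higher on every knockout array, the 6 cytoskeletal and axonal genes were highest on knockout array 1, and Ret, which was dim, followed neither.

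**Figure D1:**
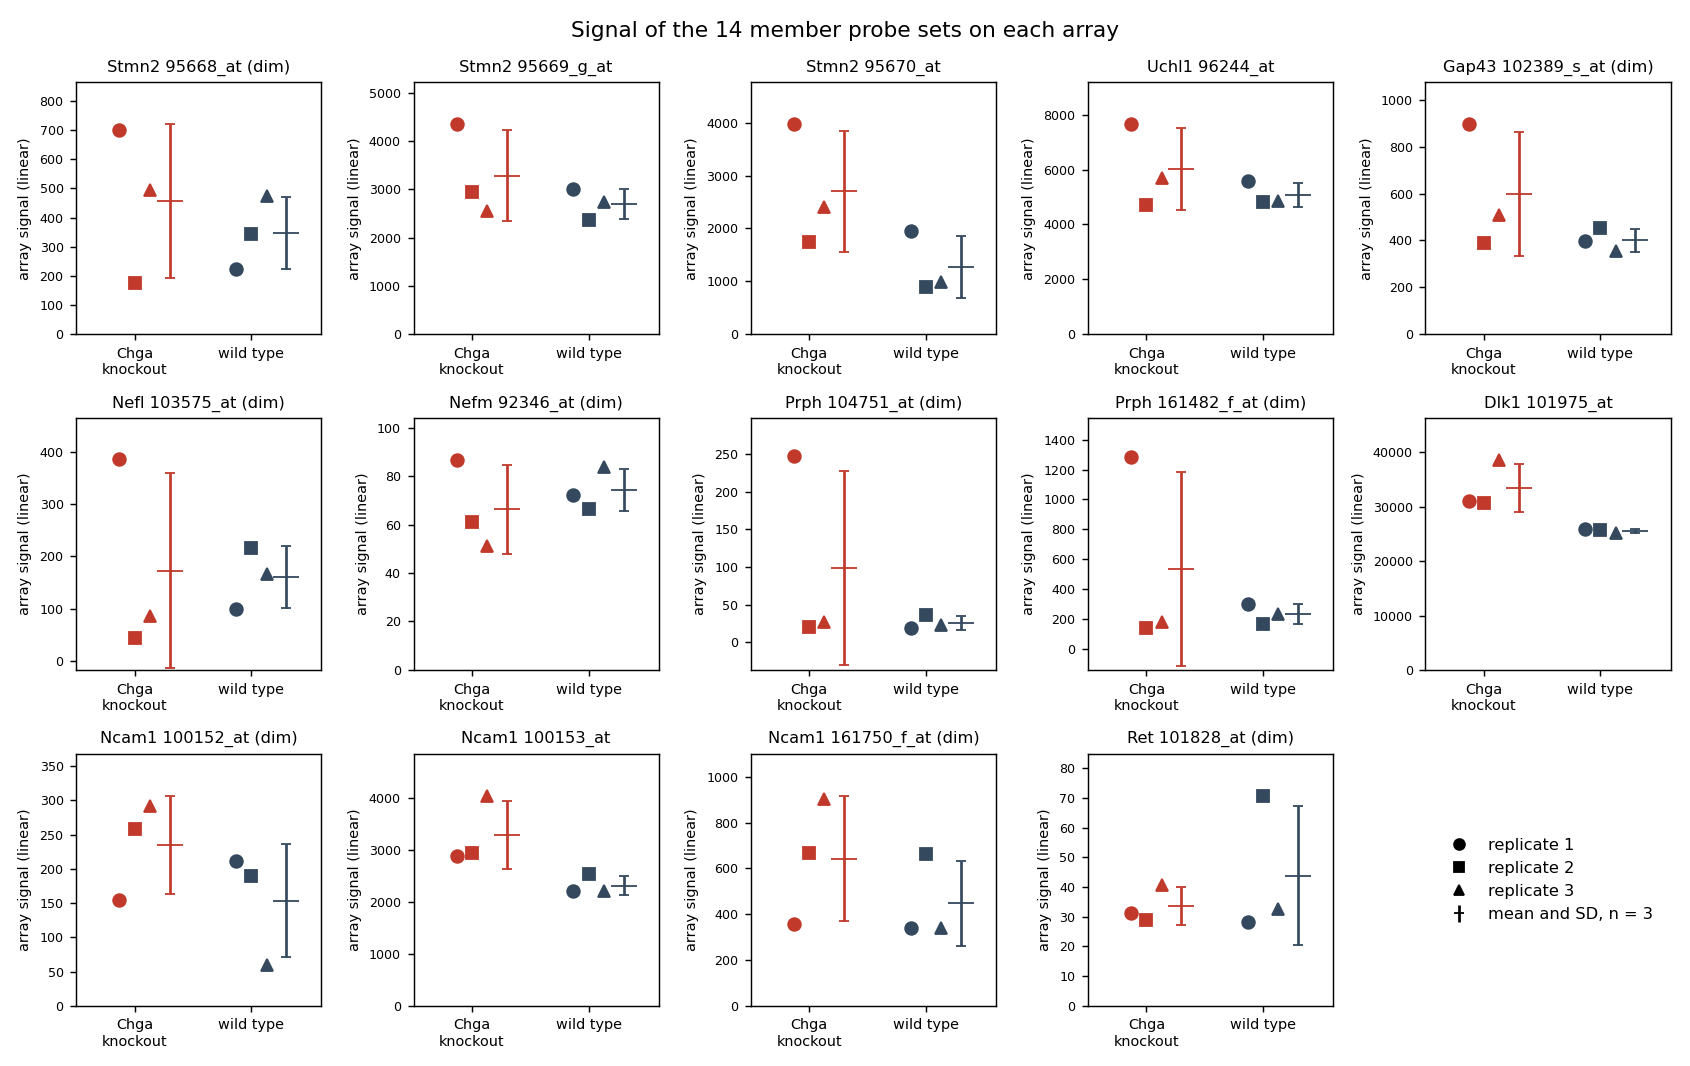
Array signal (linear, y axis) of each of the 14 member probe sets on the 3 knockout arrays (red, left) and the 3 wild-type arrays (dark blue, right), with replicates as circles, squares and triangles and the mean ± SD (n = 3) as a bar. Dlk1 101975_at and Ncam1 100153_at show every red point above every blue point, and both Prph panels show a single red circle, at 248 and 1287, far above the other points.

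Dlk1 encodes a membrane protein with EGF-like repeats, related to the Notch ligands, that marks chromaffin cells and, in the rat, has also been described in the outer cortex. Its probe set 101975_at read 31069, 30656 and 38561 on knockout arrays 1 to 3, against 25961, 25638 and 25215 on wild-type arrays 1 to 3. The groups did not overlap, and the wild-type arrays lay close together, with 25605 ± 374 (SD, n = 3) beside 33429 ± 4449.7 (SD, n = 3) in the knockout. The difference was 1.30-fold (95% interval 1.06 to 1.58), or 0.38 ± 0.13 on the log2(signal + 16) scale. It did not pass over all probe sets (limma adjusted p = 0.357), and the exact two-sided permutation test gave p = 0.1, the smallest that 3 arrays against 3 allow. Without knockout array 1 the log2 change was 0.43, and with knockout array 1 alone it was 0.28.

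Ncam1 encodes the neural cell adhesion molecule, an immunoglobulin-family protein that binds its like on neighbouring cells. It had 3 probe sets, of which only 100153_at passed the filter. That probe set read 2881, 2953 and 4047 on knockout arrays 1 to 3, against 2209.9, 2535 and 2214 on wild-type arrays 1 to 3. Again the groups did not overlap. The means were 3294 ± 654 in the knockout and 2319 ± 187 in wild type (SD, n = 3 each), a difference of 1.40-fold (95% interval 1.05 to 1.87) that did not pass (limma adjusted p = 0.397). The log2 change of 0.49 ± 0.18 became 0.58 without knockout array 1 and 0.31 with knockout array 1 alone.

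Both dim Ncam1 probe sets varied widely and their groups overlapped. Probe set 100152_at read 154, 258 and 292 on the knockout arrays against 212, 189 and 59.5 on the wild-type arrays. Probe set 161750_f_at, whose suffix marks probes shared with related sequences, read 357, 667 and 903 against 339, 662 and 341. Their log2 changes in the fit without a filter were 0.68 ± 0.55 and 0.48 ± 0.45, and 0.93 and 0.84 without knockout array 1. Knockout array 3 was the highest of the 6 arrays on all 3 Ncam1 probe sets and on Dlk1, which are 4 of the 14 member probe sets, and on 23.1% of all probe sets.

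Groups that do not overlap with higher knockout values were found for 7.55% of all tested probe sets, and for 2 of the 5 member probe sets tested, those of Dlk1 and Ncam1. Of the 9 dim member probe sets 0 had groups that did not overlap, against 9.14% of all dim probe sets in either direction. Markers of chromaffin cells were read on the same arrays. Of 15 markers listed, 10 were on the array, none of them at 0, and their summed signal lay between 217232 and 234981 on the knockout arrays and between 184845 and 203011 on the wild-type arrays. Without Chgb, a choice made after the values were seen, the groups overlapped in the summed signal. The other 9 gave 123647, 114782 and 127093 on knockout arrays 1 to 3, against 133706, 108297 and 108713 on wild-type arrays 1 to 3. Of the 9 markers tested 0 passed, 2 had higher and non-overlapping knockout values, Chgb and the transcription factor gene Gata2, and the median log2 change was 0.27. Chgb, another granin gene, had 93585, 120199 and 98209 on the knockout arrays against 69305, 77123 and 76132 on the wild-type arrays (limma adjusted p = 0.230). The suffix of its probe set also marks probes shared with related sequences. Th, the first enzyme of catecholamine synthesis, overlapped between the groups, with 21438, 23595 and 26543 on the knockout arrays against 26292, 18716 and 21141 on the wild-type arrays. The log2 change was positive for 8 of the 9 markers tested, against 48.9% of all tested probe sets. The exception was Pnmt, the gene of the enzyme that makes adrenaline, at -0.23 ± 0.18. The part of medullary marker content in the Dlk1 and Ncam1 values was not tested.

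Another measure also moved with genotype. For the Gapdh control transcript, the 3' signal divided by the 5' signal was 0.831, 1.30 and 1.29 on knockout arrays 1 to 3, against 0.794, 0.762 and 0.806 on wild-type arrays 1 to 3. For the actin control transcript the same ratio was 1.32, 1.69 and 1.72 on the knockout arrays, against 1.17, 1.22 and 1.14 on the wild-type arrays. Of the knockout arrays, array 1 thus lay closest to wild type on both controls, and above every wild-type array. With the Gapdh ratio as a covariate the log2 change was 0.27 ± 0.19 for Dlk1 and 0.31 ± 0.28 for Ncam1 100153_at (limma adjusted p = 0.998 for both), smaller than without it. It was larger for Stmn2, at 1.80 on 95670_at, 0.74 on 95669_g_at and 1.18 on 95668_at, for Uchl1, at 0.65, for Gap43, at 1.28, and for Prph, at 3.02 on 104751_at and 2.72 on 161482_f_at. Of the 14 member probe sets, 12 moved by over 1.5 times or took the other sign, and none passed. The ratio was raised mainly on knockout arrays 2 and 3, so the fit with this covariate compares mainly knockout array 1 with wild type. With knockout array 1 alone the log2 changes were similar, at 0.28 for Dlk1 and 0.31 for Ncam1 100153_at. That comparison likewise gave larger changes than all arrays did for Stmn2, Uchl1, Gap43 and Prph. The covariate fit therefore could not separate RNA quality from what set knockout array 1 apart. The part of RNA quality in the members' values was not tested.

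The cytoskeletal and axonal genes had another pattern, in that all of them were highest on the same knockout array. Knockout array 1 was the highest of the 6 arrays on 9 of the 14 member probe sets, against 13.6% of all probe sets on the array. These were all probe sets of Stmn2, Uchl1, Gap43, Nefl, Nefm and Prph, and none of Dlk1, Ncam1 or Ret. Probe sets of 1 gene share a transcript, so that the 9 stand for 6 genes. Knockout array 1 exceeded the highest of the other 5 arrays by over 2 times on 2 member probe sets, both of Prph, and on 0.853% of all probe sets.

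**Figure D2:**
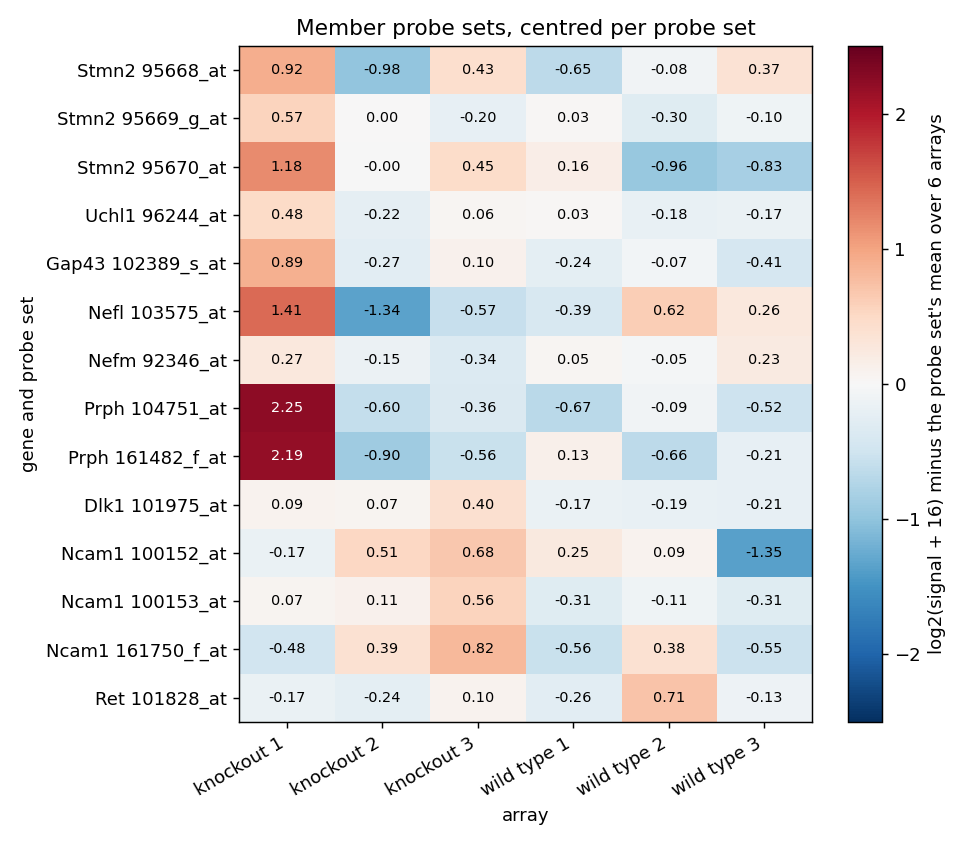
Log2(signal + 16) of each member probe set (rows) on each array (columns, knockout left and wild type right), after subtracting the probe set's mean over the 6 arrays; red is above and blue below that mean. The first column is the reddest in the upper 9 rows, from Stmn2 to Prph, and reaches 2.25 and 2.19 for Prph.

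Prph encodes peripherin, the intermediate filament protein of peripheral and autonomic neurons. Probe set 104751_at read 248, 20.7 and 27.4 on knockout arrays 1 to 3, against 18.9, 36.2 and 22.9 on wild-type arrays 1 to 3. The reading on knockout array 1 was thus 6.85 times the highest other reading, a ratio of dim signals whose distance from background is not known, and the other 5 arrays did not separate by genotype. Probe set 161482_f_at, whose suffix marks probes shared with related sequences, had the same highest array but another order below it. It read 1287, 137 and 177 on the knockout arrays against 296, 164 and 229.6 on the wild-type arrays. Here knockout array 1 was 4.34 times the next array. Group means of 534 ± 652 in the knockout and 230.1 ± 65.9 in wild type (SD, n = 3 each) therefore describe no array of the knockout group. The log2 changes in the fit without a filter were 0.86 ± 0.72 and 0.49 ± 0.77 (limma adjusted p = 0.799 and 0.900). Without knockout array 1 they were -0.05 and -0.48, so that the sign turned on both probe sets.

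Nefl and Nefm encode the light and medium neurofilament subunits. Nefl, on probe set 103575_at, read 388, 44.0 and 86.1 on knockout arrays 1 to 3, against 99.4, 217 and 166 on wild-type arrays 1 to 3. The highest of the 6 was knockout array 1 and the lowest were knockout arrays 2 and 3. The log2 change was -0.33 ± 0.70 with all arrays, -1.12 without knockout array 1 and 1.25 with knockout array 1 alone, and none passed. Nefm, on probe set 92346_at, read 86.6, 61.0 and 51.3 on the knockout arrays against 72.4, 66.5 and 83.8 on the wild-type arrays. The arrays differed little on Nefm, with knockout array 1 only 1.03 times the next array, and the log2 change was -0.15 ± 0.41 (limma adjusted p = 0.958), or -0.32 without knockout array 1.

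Gap43 encodes a membrane-bound phosphoprotein of growth cones. Its probe set 102389_s_at read 896, 391 and 509 on knockout arrays 1 to 3, against 398, 452 and 353 on wild-type arrays 1 to 3. Only knockout array 1 lay clearly apart, at 1.76 times the next array, and the groups overlapped. The log2 change of 0.48 ± 0.39 (limma adjusted p = 0.793 in the fit without a filter) was 0.15 without knockout array 1.

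Stmn2 encodes stathmin 2, also called SCG10, a membrane-anchored protein that binds tubulin and makes microtubules more dynamic in growing axons. It had 3 probe sets, and they differed in the size of the change. Probe set 95670_at read 3973, 1746 and 2398 on knockout arrays 1 to 3, against 1956, 894 and 978 on wild-type arrays 1 to 3. The highest was knockout array 1, the lowest were wild-type arrays 2 and 3, and the groups overlapped only through knockout array 2 and wild-type array 1. The log2 change of 1.08 ± 0.37, a 2.12-fold difference with a 95% interval of 1.19 to 3.76, was the largest among the tested members and did not pass (limma adjusted p = 0.357). Without knockout array 1 it was 0.77.

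The brighter Stmn2 probe set showed a smaller difference. Probe set 95669_g_at read 4350.2, 2941 and 2558 on the knockout arrays, against 2999, 2376 and 2739 on the wild-type arrays, with a log2 change of 0.25 ± 0.22 (limma adjusted p = 0.703) that was 0.03 without knockout array 1. The dim probe set 95668_at, annotated with the same accession as 95669_g_at, read 699.9, 176 and 493 against 225, 343 and 474, with a log2 change of 0.24 ± 0.55. The probe sets thus agreed in their highest array and in the sign with all arrays, while the log2 changes without knockout array 1 were 0.77 on 95670_at, 0.03 on 95669_g_at and -0.16 on 95668_at. The difference between the probe sets was not tested.

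Uchl1 encodes ubiquitin C-terminal hydrolase L1, also known as PGP9.5. Its probe set 96244_at read 7655, 4707 and 5697 on knockout arrays 1 to 3, against 5580.5, 4821 and 4851 on wild-type arrays 1 to 3. The highest of all 6 was knockout array 1 and the lowest knockout array 2. The means were 6019.6 ± 1501 in the knockout and 5084 ± 430.0 in wild type (SD, n = 3 each), a difference of 1.16-fold with a 95% interval of 0.862 to 1.57 (limma adjusted p = 0.703). Without knockout array 1 the log2 change was 0.03.

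Ret, the receptor tyrosine kinase through which GDNF family ligands signal, was dim on every array. Its probe set 101828_at read 31.2, 28.9 and 40.8 on knockout arrays 1 to 3, against 28.3, 70.7 and 32.5 on wild-type arrays 1 to 3. All 6 values lay far below the level set for testing, and wild-type array 2 was the highest. The log2 change was -0.21 ± 0.42 (limma adjusted p = 0.930 in the fit without a filter), with a 95% interval of -1.17 to 0.75, and -0.18 without knockout array 1. These readings do not show whether Ret was expressed.

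**Figure D3:**
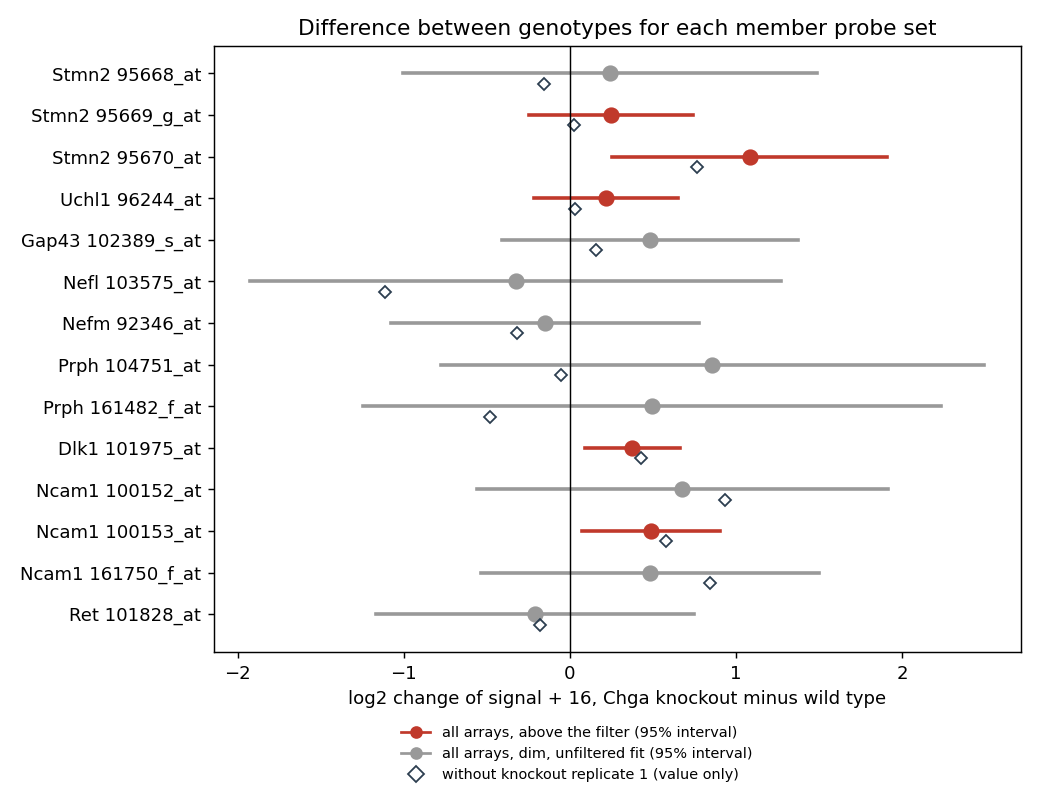
Log2 change of signal + 16 (x axis, knockout minus wild type) with its 95% interval for each member probe set, in red where it passed the filter and grey where it was dim, with open diamonds for the value without knockout array 1. Diamonds of Stmn2, Uchl1, Gap43, Nefl, Nefm and Prph lie left of their circles, and those of Dlk1, Ncam1 and Ret lie right of theirs. Where knockout array 1 was the highest array, leaving it out must lower the knockout mean. The direction of that shift is therefore no separate result.

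Promoter sequence, from 250 bases before to 50 bases after the annotated start, was taken from RefSeq on GRCm38.p6. The table matched 3 of the 9 members, namely Prph and Uchl1, which were highest on knockout array 1, and Dlk1, which lay higher on every knockout array. They are shown to set the start regions of both patterns side by side. Capitals mark matches, on either strand, of the 6 motifs searched: the TATA box TATAAA, the CCAAT box CCAAT, the GC box GGGCGG, the E box CAGCTG, the CRE core TGACG and CAGCACC, the core of the element bound by the neuronal gene repressor REST.
Prph, chr15:99054924-99055223, plus strand: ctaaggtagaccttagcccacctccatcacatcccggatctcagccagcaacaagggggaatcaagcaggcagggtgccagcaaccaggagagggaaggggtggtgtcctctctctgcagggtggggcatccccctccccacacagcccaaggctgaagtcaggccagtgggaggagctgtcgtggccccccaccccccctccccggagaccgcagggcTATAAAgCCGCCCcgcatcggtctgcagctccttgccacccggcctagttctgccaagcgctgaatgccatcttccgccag
Uchl1, chr5:66675871-66676170, plus strand: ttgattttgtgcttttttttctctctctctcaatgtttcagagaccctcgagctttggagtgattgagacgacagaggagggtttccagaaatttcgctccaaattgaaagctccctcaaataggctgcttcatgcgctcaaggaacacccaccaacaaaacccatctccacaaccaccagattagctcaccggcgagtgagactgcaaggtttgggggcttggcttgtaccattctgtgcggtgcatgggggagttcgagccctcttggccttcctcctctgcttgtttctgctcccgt
Dlk1, chr12:109452573-109452872, plus strand: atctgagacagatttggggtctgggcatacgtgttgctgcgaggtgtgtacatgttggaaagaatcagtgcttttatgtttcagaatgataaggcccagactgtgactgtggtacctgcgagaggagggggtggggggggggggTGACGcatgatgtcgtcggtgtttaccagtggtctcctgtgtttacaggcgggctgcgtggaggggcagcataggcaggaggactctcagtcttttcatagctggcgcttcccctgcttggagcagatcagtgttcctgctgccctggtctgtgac

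The Prph window held a TATA box that starts 31 bases before the annotated start and, next to it, a GC box on the minus strand. Of all 32851 promoter windows in the table, 13.6% held a TATA box and 35.7% a GC box. The Dlk1 window held 1 CRE core, found in 20.8% of all windows, and the Uchl1 window held none of the 6 motifs. The E box letters are in 16.3%, the CCAAT letters in 37.4% and the CAGCACC letters in 7.14% of all windows, and in none of the 3 shown. G and C made up 64.7% of the Prph, 50.7% of the Uchl1 and 55.7% of the Dlk1 window, beside a median of 52.7%. A match is a description of letters and not of a bound site.

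Other genes of the same pathways were described through 7 lists with 112 genes, of which 86 were on the array and 57 were tested. Of these 57 none passed over all probe sets in limma, and 13 had an unadjusted p under 0.05, against 11.3% of all tested probe sets. Groups did not overlap for 8 list genes with higher and 7 with lower knockout values, against 7.55% and 8.83% of all tested probe sets. Their median log2 change was 0.07.

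Several tubulin and microtubule genes lay higher on every knockout array, though none passed. Of 12 tubulin and microtubule genes tested, 0 passed and only 5 had a positive log2 change, with a list median of 0.00. Non-overlapping knockout values were higher for 4 and lower for 1, against 7.55% and 8.83% of all tested probe sets. Tubb2a, a neuronal beta tubulin, read 10105, 5773 and 5814 on knockout arrays 1 to 3, against 4424, 3458 and 3032 on wild-type arrays 1 to 3 (log2 change 0.95 ± 0.24, limma adjusted p = 0.206). Every knockout array exceeded every wild-type array, and knockout array 1 was again the highest. Tubb4a, another beta tubulin, had a log2 change of 1.08 ± 0.33, Map4, a microtubule-binding protein gene, 0.72 ± 0.23 and the alpha tubulin Tuba1a 0.45 ± 0.16 (limma adjusted p = 0.297, 0.320 and 0.390). Tubulin genes are near copies of each other, so that probe sets such as those of Tubb2a and Tuba1a may share signal between them.

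Stathmin and growth cone genes showed no passing change. Of 8 tested 0 passed, and the list median was -0.01. Stmn1, the ubiquitous stathmin of dividing cells, read 3975, 5062 and 4275 on the knockout arrays, against 6325, 8527 and 11136 on the wild-type arrays (a log2 change of -0.93 ± 0.21, limma adjusted p = 0.155). It thus lay lower on every knockout array, opposite in sign to all 3 probe sets of its paralogue Stmn2. Stmn4 had a log2 change of 0.28 ± 0.26, and the collapsin response mediator Dpysl2 and the growth cone protein gene Basp1 each had -0.19.

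Intermediate filament genes other than the members showed no passing change. Of 8 tested 0 passed, with a list median of 0.09. Ina, the gene of the neuronal filament protein internexin alpha, read 1426, 941 and 1844 on the knockout arrays, against 1437, 859 and 745 on the wild-type arrays (a log2 change of 0.47 ± 0.33, limma adjusted p = 0.631). The groups overlapped, and knockout array 1 was not the highest. The nuclear lamin genes Lmnb1 and Lmnb2 had log2 changes of -0.85 ± 0.27 and -0.48 ± 0.35, and Nes, a filament gene of neural progenitors, 0.16 ± 0.21.

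Among neural adhesion genes 0 of 7 tested passed, and the median was 0.12. Cadm1, an immunoglobulin-family adhesion gene, read 6506, 8922 and 7311 on the knockout arrays, against 3937, 5127 and 5611 on the wild-type arrays (a log2 change of 0.63 ± 0.18, limma adjusted p = 0.270). The suffix of the Cadm1 probe set marks probes shared with related sequences. Alcam, of the same protein family as Cadm1, also had non-overlapping higher values (0.46 ± 0.19, limma adjusted p = 0.408). Nrp1, a semaphorin co-receptor gene also used by endothelium, had a log2 change of -0.34 ± 0.14, and Cd24a one of 0.17 ± 0.15. L1cam, an axonal adhesion gene that was dim and is named because of its values, read 424, 124 and 91.1 on knockout arrays 1 to 3, against 44.5, 114 and 96.8 on wild-type arrays 1 to 3. Knockout array 1 was 3.42 times the next array on L1cam, the only list gene on which it exceeded all others by over 2 times.

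Partners of Dlk1 in the Notch pathway had a median log2 change of 0.27, with 0 of 7 tested past the threshold. The receptor gene Notch1 read 1913, 2548 and 2510.2 on the knockout arrays, against 744, 1093 and 1721 on the wild-type arrays (a log2 change of 1.03 ± 0.30, limma adjusted p = 0.270). Hes1, a repressor gene switched on by Notch, had 3806, 3784 and 4135 against 2422, 2978 and 2932 (log2 change 0.50 ± 0.15, limma adjusted p = 0.311). Both had groups that did not overlap. Rbpj, the gene of the DNA-binding partner of Notch, did so in the other direction, with 1631, 1450.0 and 1316 on the knockout arrays against 1714, 1632 and 1734 on the wild-type arrays (-0.21 ± 0.18). These 2 higher and 1 lower of the 7 tested stand beside the 7.55% and 8.83% of all tested probe sets. Notch3 had a log2 change of 0.30 ± 0.29.

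Around Ret, 0 of 11 ligand, co-receptor, adaptor and neurotrophic receptor genes tested passed, and the median was 0.14. Nrtn, the gene of the ligand neurturin, had a log2 change of -0.57 ± 0.22, and its co-receptor gene Gfra2 read 1252, 454 and 991 on the knockout arrays, against 1387, 1509 and 1434 on the wild-type arrays (a log2 change of -0.79 ± 0.35, limma adjusted p = 0.445). Gfra2 lay lower on every knockout array. Artn, the gene of the ligand artemin, had a log2 change of 0.58 ± 0.35 and the adaptor gene Grb10 one of -0.91 ± 0.39. Among ubiquitin hydrolases 0 of 4 tested passed, with a median of -0.08, and Usp9x, Usp14, Uchl5 and Otub1 had log2 changes of 0.33, -0.21, -0.23 and 0.05.

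**Figure D4:**
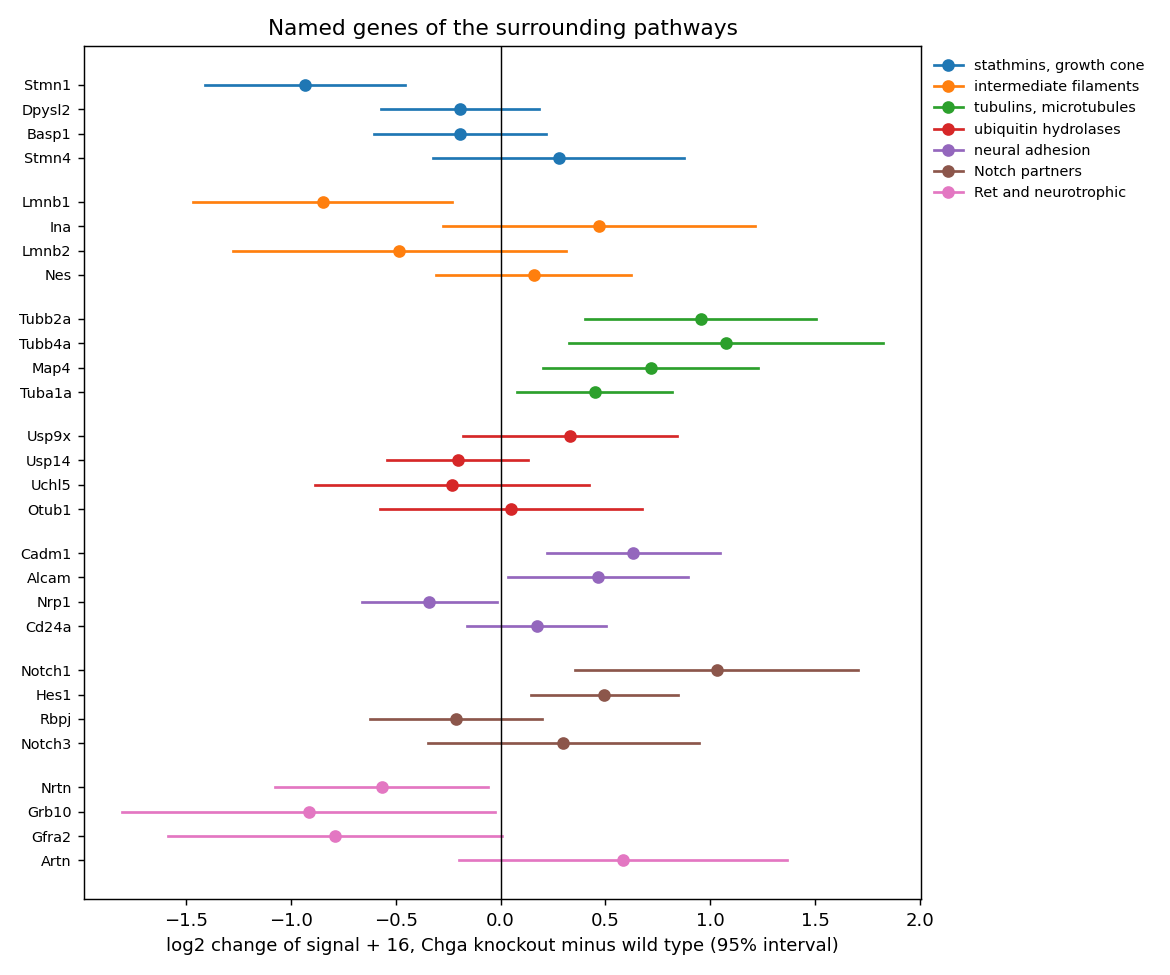
Log2 change of signal + 16 (x axis, knockout minus wild type) with its 95% interval for the 28 named list genes, coloured by list. The 4 tubulin and microtubule genes shown, those with the smallest p of 12 tested, lie between 0.45 and 1.08. Only 5 of the 12 had a positive log2 change. Stmn1 and Lmnb1 lie at -0.93 and -0.85, and none of the genes passed the test over all probe sets.

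Knockout array 1 was not the highest array for the pathway lists at large. It was highest for 15 of the 86 list genes on the array, or 17.4%, beside the 13.6% of all probe sets. Among them were the tubulin genes Tubb2a, Tuba1a and Tubb4a, the axonal genes Map1b and Kif1a, L1cam and the neurotrophin receptor gene Ntrk3. Ntrk3 read 616, 97.1 and 317 on the knockout arrays against 145, 137 and 265 on the wild-type arrays. Map1b, Kif1a, L1cam and Ntrk3 were dim. The rest were Lmna, Dctn1, Uchl5, Cd24a, Grb2, Dok1, Crmp1 and Gpm6b, the last of them dim. Other genes of the same lists, such as Ina and Stmn4, were highest on knockout array 3. Several of the 15 differed little from the next array, such as Crmp1, at 1.05 times it.

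Markers of other cell types were read on the same arrays. For Schwann cells, which sheathe nerve fibres, 6 of 10 markers were on the array, and their summed signal was 15481, 11149 and 13672 on knockout arrays 1 to 3, against 16682, 14831 and 12968 on wild-type arrays 1 to 3. Knockout array 1 thus lay within the wild-type range on this sum, of which Pmp22 alone gave 10195. Single markers were mixed: Pmp22, S100b and Mal lay within their wild-type ranges on knockout array 1. Sox10, at 1860, lay below every wild-type array, and Mbp, at 1834, and Cnp lay above every one. All 12 skeletal muscle markers were present, and their sum was 10114, 82612 and 41425 on the knockout arrays, against 10435.5, 10190.7 and 10702 on the wild-type arrays. Knockout array 1, with the highest axonal signals, had a muscle sum close to those of wild type. The wild-type arrays, with similar muscle sums, read lower than it on the cytoskeletal and axonal members. A link between muscle content and these members was not tested. Single muscle markers could differ from the sum. Acta1 read 565, 32131 and 13869 on knockout arrays 1 to 3, against 180, 180 and 29.1 on wild-type arrays 1 to 3. Ckm, at 762 on knockout array 1, lay within the wild-type range of 636 to 818. The 10 macrophage markers summed to between 23350.4 and 42211 on the knockout arrays and between 19653 and 24195 on the wild-type arrays. Adipocyte markers, 6 of 8 on the array, summed to between 41235 and 69588 on the knockout arrays and between 30605 and 58337 on the wild-type arrays. Cortical markers, 8 of 10, summed to between 583113 and 661596 on the knockout arrays and between 547151 and 662878 on the wild-type arrays. None of these markers was listed at 0, and their part in the members' values was not tested.

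The mean pattern of the 4 tested members was taken from the brightest probe set of each, centred on its own mean. It stood at 0.30, -0.01 and 0.21 on knockout arrays 1 to 3, against -0.10, -0.20 and -0.20 on wild-type arrays 1 to 3. Of 5659 other tested genes, those most like it by Pearson's r over the 6 arrays were Fosb (0.99), Amotl2 (0.99), Bcl2l2 (0.98), Gdpd5 (0.98) and Odc1 (0.98). The averaged pattern joins members of both patterns described above, and genes chosen by likeness have its shape through that choice. Fosb, an AP-1 transcription factor gene, read 8995, 4109 and 8044 on the knockout arrays, against 3602, 2628 and 2854 on the wild-type arrays (a log2 change of 1.15 ± 0.28, limma adjusted p = 0.192). These values describe likeness over 6 arrays scaled to a common level, among all the genes searched.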

How the data were processed

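RNA of 6 adrenal samples was measured on Affymetrix arrays, and groups were taken from the sample titles. The authors deposited a linear intensity for each probe set, for which the submitters' processing notes name MAS5. Its version, its scaling target and any detection calls are not stated in those sources. The mean signal after trimming 2% at each end was 2501 on every array, so the values were not normalized again. Of 12488 probe sets, 66 controls were left out. Of the others, 10833 had 1 gene symbol, 396 several and 1193 none in the platform annotation; symbols were updated by Entrez identifier (RefSeq, GRCm38), without a match for 16 probe sets. The files name no genome build.

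Values were transformed to log2(signal + 16), and probe sets below the 40th percentile of the mean were left out. Groups were compared over all 7453 remaining probe sets with limma 3.58.1 in R 4.3.3 (lmFit, eBayes with trend) and Benjamini-Hochberg adjustment. Dim member probe sets were read from the same fit without a filter. The scripts were tested on simulated data. The members and the gene lists were chosen with earlier results of these data known. The named genes are all members, up to 4 genes of each list with the smallest p, and the 5 genes of most similar pattern; Chga, the cell type markers, the list genes highest on knockout array 1 and other exceptions were named in addition. Each list gene or marker is represented in the fits by its brightest tested probe set. For the highest array and the marker sums, the brightest probe set of each gene was used, tested or not. Errors are SD for signals and standard errors for log2 changes. The number of arrays limits the precision. Alternatives were pseudocounts of 1 and 64, no filter or a stricter one (60th percentile), median, quantile and cyclic loess scaling, eBayes robust or without trend, weighted arrays, a block for replicate number, the Gapdh ratio as a covariate, knockout array 1 alone, and each array left out.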

Additional observations from a re-analysis of the deposited data

How the results depend on the processing

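No member probe set passed under any of the 19 alternatives, and of 248 recomputed member values 236 kept their sign. Over all probe sets the count of 33 calls became 17 without the eBayes trend, 12 with the Gapdh ratio as a covariate, 13 with knockout array 1 alone and 57 with the replicate number as a block. It ranged from 15 to 141 when an array was left out: 141 without knockout array 1, 15 without knockout array 3, and 17 and 21 without wild-type array 2 or 3. The split between directions was 12 higher and 21 lower. Of the list genes 1 was called with the replicate block, where none was without it (Tubb2a, limma adjusted p = 0.0440), and their count ranged from 0 to 1 when an array was left out (Stmn1 without wild-type array 1, limma adjusted p = 0.0478). Whether the replicate numbers pair the arrays was not settled. Deviations of same-numbered arrays correlated at 0.26, the highest of all pairs between genotypes, -0.04 and -0.04. Knockout arrays 2 and 3 correlated best with another number.

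These log2 changes had the other sign. With the Gapdh ratio as a covariate, Nefl was 1.57, Nefm 0.22, Ncam1 161750_f_at -0.28, Basp1 0.030, Lmnb2 0.076, Nes -0.28, Uchl5 0.47, Otub1 -0.0649, Notch3 -0.45 and Grb10 0.11. With that covariate 20 of the 28 named list genes took the other sign or moved by over 1.5 times, among them Gfra2 (-0.08), Map4 (0.20) and Alcam (0.21). As described for the members, the covariate fit compares mainly knockout array 1 with wild type. With knockout array 1 alone, Nefl was 1.25, Nefm 0.19, Ncam1 161750_f_at -0.24, Lmnb2 0.018, Nes -0.21, Uchl5 0.37, Otub1 -0.051 and Notch3 -0.31. When an array was left out, Stmn2 95668_at ranged from -0.16 (without knockout array 1) to 0.79, and Prph from -0.051 to 1.37 and from -0.48 to 1.06, in both cases lowest without knockout array 1. Likewise Nefl ranged from -1.12 to 0.26 (without knockout array 2), Ret from -0.39 to 0.091 (without wild-type array 2) and Otub1 from -0.20 to 0.39. None of these values passed, with the main or the alternative setting, and the cause was not tested. Of 133 recomputed list medians, 20 moved by more than 1 SD of the list mean between arrays. With 3 arrays per group and no detection calls, differences smaller than the intervals of the dim members could not be resolved.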
